A study of Mus musculus with 12 samples.

Results

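The genes described here are the collagen chain genes of the mouse, those whose symbol reads Col, a number, a and a number. Matching the Ensembl gene IDs of the count tables to symbols gave 44 such genes among 48709 IDs. They fall into 11 fibrillar chains, 6 basement membrane chains (all of type IV) and 27 other chains. The samples are cultured embryonic fibroblasts (MEFs) of strain C57BL/6, sequenced as RNA libraries in 4 groups of 3. Wild-type (WT) cells and TAZKo cells, which the labels give as lacking tafazzin, were each kept in normoxia or held in hypoxia for 24 hours in a hypoxia workstation, and all were grown in DMEM with fetal bovine serum. Tafazzin is the transacylase that remodels the mitochondrial lipid cardiolipin, and the series asks how its lack alters the response of cells to low oxygen. The WT cells are described as isogenic. The labels give neither the oxygen level nor how the TAZKo cells were made, nor whether the samples of a group were separate cultures, so p-values measure the spread between these samples, which may be technical.

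Collagens are the main structural proteins of the extracellular matrix, and fibroblasts are their chief source. Each molecule is a helical trimer of alpha chains, made of 1 kind of chain or of several kinds that assemble together. Type I and type III collagen form the bulk of fibrils, with type V chains inside them that set fibril diameter. Type IV chains build the sheet of the basement membrane, type VI chains form beaded filaments around cells, and type VIII chains form hexagonal networks. FACITs (fibril-associated collagens with interrupted helices, such as types XII and XVI) sit on fibril surfaces, and type VII forms the anchoring fibrils of skin. New chains are modified by prolyl and lysyl hydroxylases, which use oxygen as a substrate, before they fold and leave the cell.

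Total counts per library ran from 21039451 to 31204510. Levels are given as CPM, the count relative to library size after TMM scaling (trimmed mean of M), and 3 counts, taken as the floor, equal 0.0927 to 0.150 CPM. Taz, the gene of tafazzin, did not check the TAZKo label: its count was higher in TAZKo than in WT cells in normoxia (log2 fold change 0.29 ± 0.08, SE, adjusted p = 0.0139, edgeR quasi-likelihood test) and in hypoxia (0.43 ± 0.08, adjusted p = 0.00112), so every direction given between genotypes rests on the labels alone. Of 10 fibroblast markers, Vim, Fn1, Col1a1, Col3a1, Dcn, Pdgfra, Pdgfrb and S100a4 were well above the floor, Col1a2 was low, and Thy1 averaged 0.116 to 0.215 CPM in a group. Summed epithelial markers, nearly all Krt14 and Krt18, read 345 to 431 CPM in normoxic WT, 196 to 211 in normoxic TAZKo, 315 to 345 in hypoxic WT and 255 to 258 in hypoxic TAZKo, with Cdh1 and Krt5 averaging no more than 0.232 CPM in a group. Ptprc, Adgre1 and Cd3e, which mark blood cells, never passed 3 counts. The part of such cells in the collagen differences was not tested. Library names place the samples on sequencing lanes 4 and 5. Replicates 1 and 2 of each normoxia group and replicate 1 of each hypoxia group were on lane 4, so the lanes were balanced over genotype but not over oxygen. With lane as a covariate 13, 12, 18, 13 and 0 chains were called between genotypes in normoxia and hypoxia, with hypoxia in WT and TAZKo cells, and for the interaction. Calls over all genes with this covariate are not given here. WT normoxia replicate 1 stood apart on the third principal component (23.7), so counts of called chains are also given without it. Replicate 1 of normoxic TAZKo (4.37) and of hypoxic WT (7.4) also lay apart from replicates 2 and 3 there (-8.37 to -6.99). In hypoxic TAZKo replicate 1 did not (5.62, beside 6.63 and 1.21).

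Collagen chains took 0.817% to 1.26% of all counts in a library. Their summed level was 10712 ± 1189 CPM (SD, n = 3) in normoxic WT and 8799 ± 148 CPM in normoxic TAZKo. In hypoxia it was 10853 ± 1139 CPM in WT and 8596 ± 307 CPM in TAZKo. Fibrillar chains carried the difference between genotypes, and the other chains went the opposite way. Fibrillar chains summed to 6024 ± 700.5 CPM in WT and 3547 ± 49.3 CPM in TAZKo cells in normoxia, and to 7084 ± 826 and 3919 ± 174 CPM in hypoxia. The lowest WT sample, at 5532 CPM, lay above the highest TAZKo sample of either condition, at 4094 CPM. The other chains summed to 2886 ± 271 CPM in WT and 3531 ± 124 CPM in normoxic TAZKo, and to 1954 ± 237 and 2754 ± 69.8 CPM in hypoxia. Type IV chains ranged only from 1647 to 2057 CPM over the 12 samples. These sums are descriptions with no test, and in cultures of this kind fewer cells that make collagen and less collagen RNA per cell cannot be told apart.

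**Figure D1:**
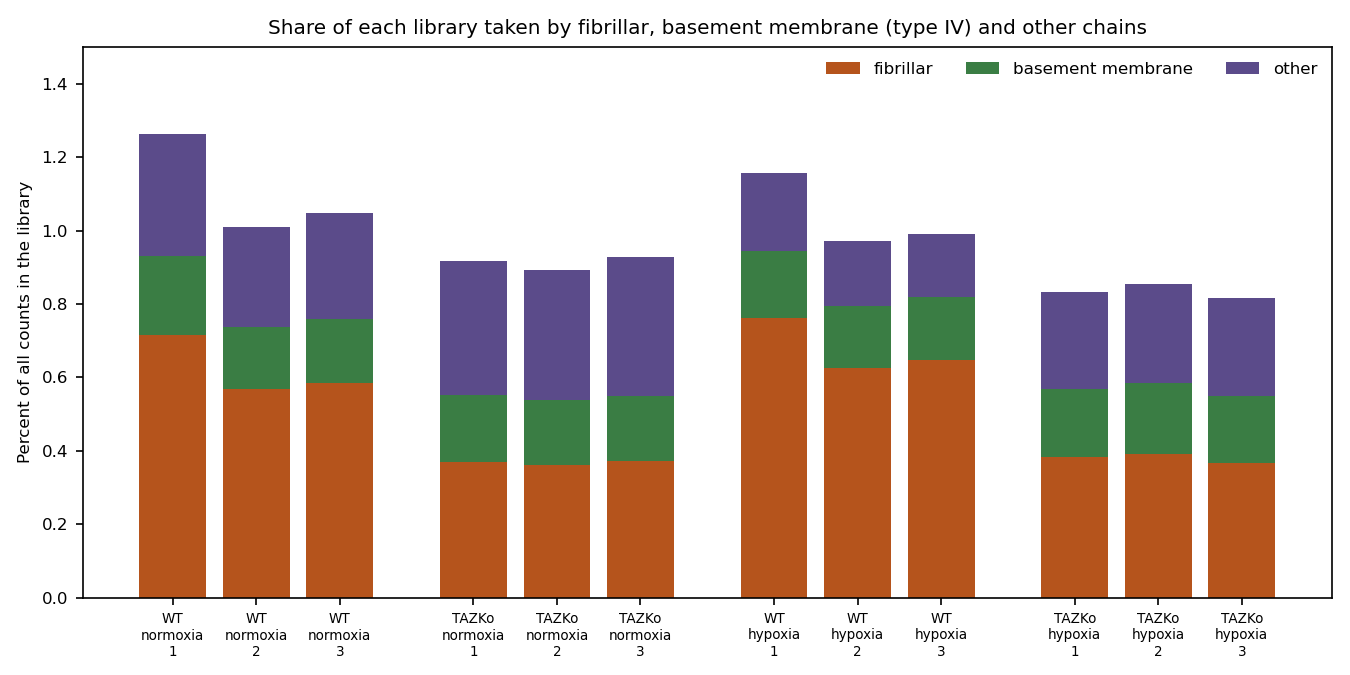
Stacked bars give the percentage of all counts in each of the 12 libraries that fell on fibrillar, basement membrane (type IV) and other collagen chains; the number under each bar is the replicate. The fibrillar share was 0.568% to 0.763% in the WT libraries and 0.361% to 0.392% in the TAZKo libraries, while the type IV share stayed between 0.169% and 0.215%.

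A few chains held most of this signal. Col1a1 took 26.4% ± 0.791 of collagen counts in normoxic WT, 13.1% ± 0.271 in normoxic TAZKo, 33.2% ± 1.28 in hypoxic WT and 16.0% ± 0.235 in hypoxic TAZKo. Col6a1 took 14.5% ± 0.314, 21.9% ± 0.539, 7.64% ± 0.572 and 15.5% ± 0.476 in the same order. Levels per kilobase of exon used all annotated exons of a gene, merged. By this measure Col1a1 ranked first in both WT groups, at 432 ± 61.3 CPM per kb in normoxia and 549 ± 72.4 in hypoxia. In WT normoxia its samples overlapped those of Col6a1, at 353 ± 33.5 CPM per kb. Col6a1 ranked first in both TAZKo groups, at 439.9 ± 18.2 CPM per kb in normoxia and 305 ± 8.40 in hypoxia, with no overlap with Col1a1 at 176 ± 2.18 and 209.7 ± 8.5.

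Of the 44 chains, 28 passed the filter on low counts and were tested: 9 fibrillar, 5 of type IV and 14 others. Between genotypes in normoxia, 13 of the 28 were called (adjusted p under 0.05), 7 higher and 6 lower in TAZKo, where 30.4% of all 14408 genes tested were called, 15.6% higher and 14.9% lower. Between genotypes in hypoxia, 12 were called, 6 in each direction, against 32.8% of all genes (15.8% higher, 16.9% lower). Hypoxia changed 18 chains in WT cells, 12 higher and 6 lower, against 51% of all genes (26% higher, 25% lower). In TAZKo cells it changed 11, 7 higher and 4 lower, against 43.8% (22.2% higher, 21.6% lower). At least 2-fold were 4, 4, 6 and 4 of the called chains in these comparisons, where 5.96%, 5.82%, 11.2% and 8.44% of all genes were. Median log2 fold changes of the 28 chains were -0.01, -0.08, 0.16 and 0.18 in these 4 comparisons, and 0.01, -0.01, 0.01 and -0.01 over all genes. Without WT normoxia replicate 1 the counts were 12, 16, 19 and 17, and without TAZKo hypoxia replicate 1 the last was 7. Calls over all 14408 genes moved too when 1 library was left out at a time. They ran from 3308 to 4939, 3718 to 6116, 6296 to 7621 and 5237 to 7639, against 4384, 4723, 7355 and 6309 with all 12. Scaling by library size alone, which lowered the median over all genes by 0.11 in the WT hypoxia comparison (from 0.01 to -0.10), split the hypoxia calls 10 higher and 8 lower in WT and 4 higher and 6 lower in TAZKo cells.

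By class, 4 of 9 fibrillar chains were called between genotypes in normoxia and 4 in hypoxia, and 7 and 3 of them changed with hypoxia in WT and TAZKo cells. Of 5 type IV chains, 1, 1, 1 and 0 were called in the same order. Of the 14 others, 8, 7, 10 and 8 were called. All comparisons came from 1 fit of the 12 samples, which share 1 estimate of the spread, so their lists of calls are not independent. The genotype comparisons in normoxia and hypoxia share no sample. They called 10 chains in both and in the same direction, which is 76.9% of the first list and 83.3% of the second, and the same shares over all genes were 64.2% and 59.6%. All 11 chains called in hypoxia in TAZKo cells were also called in WT cells in the same direction, and they made up 61.1% of the WT list. Over all genes, 81.6% of the TAZKo list and 69.98% of the WT list were shared in that way.

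**Figure D2:**
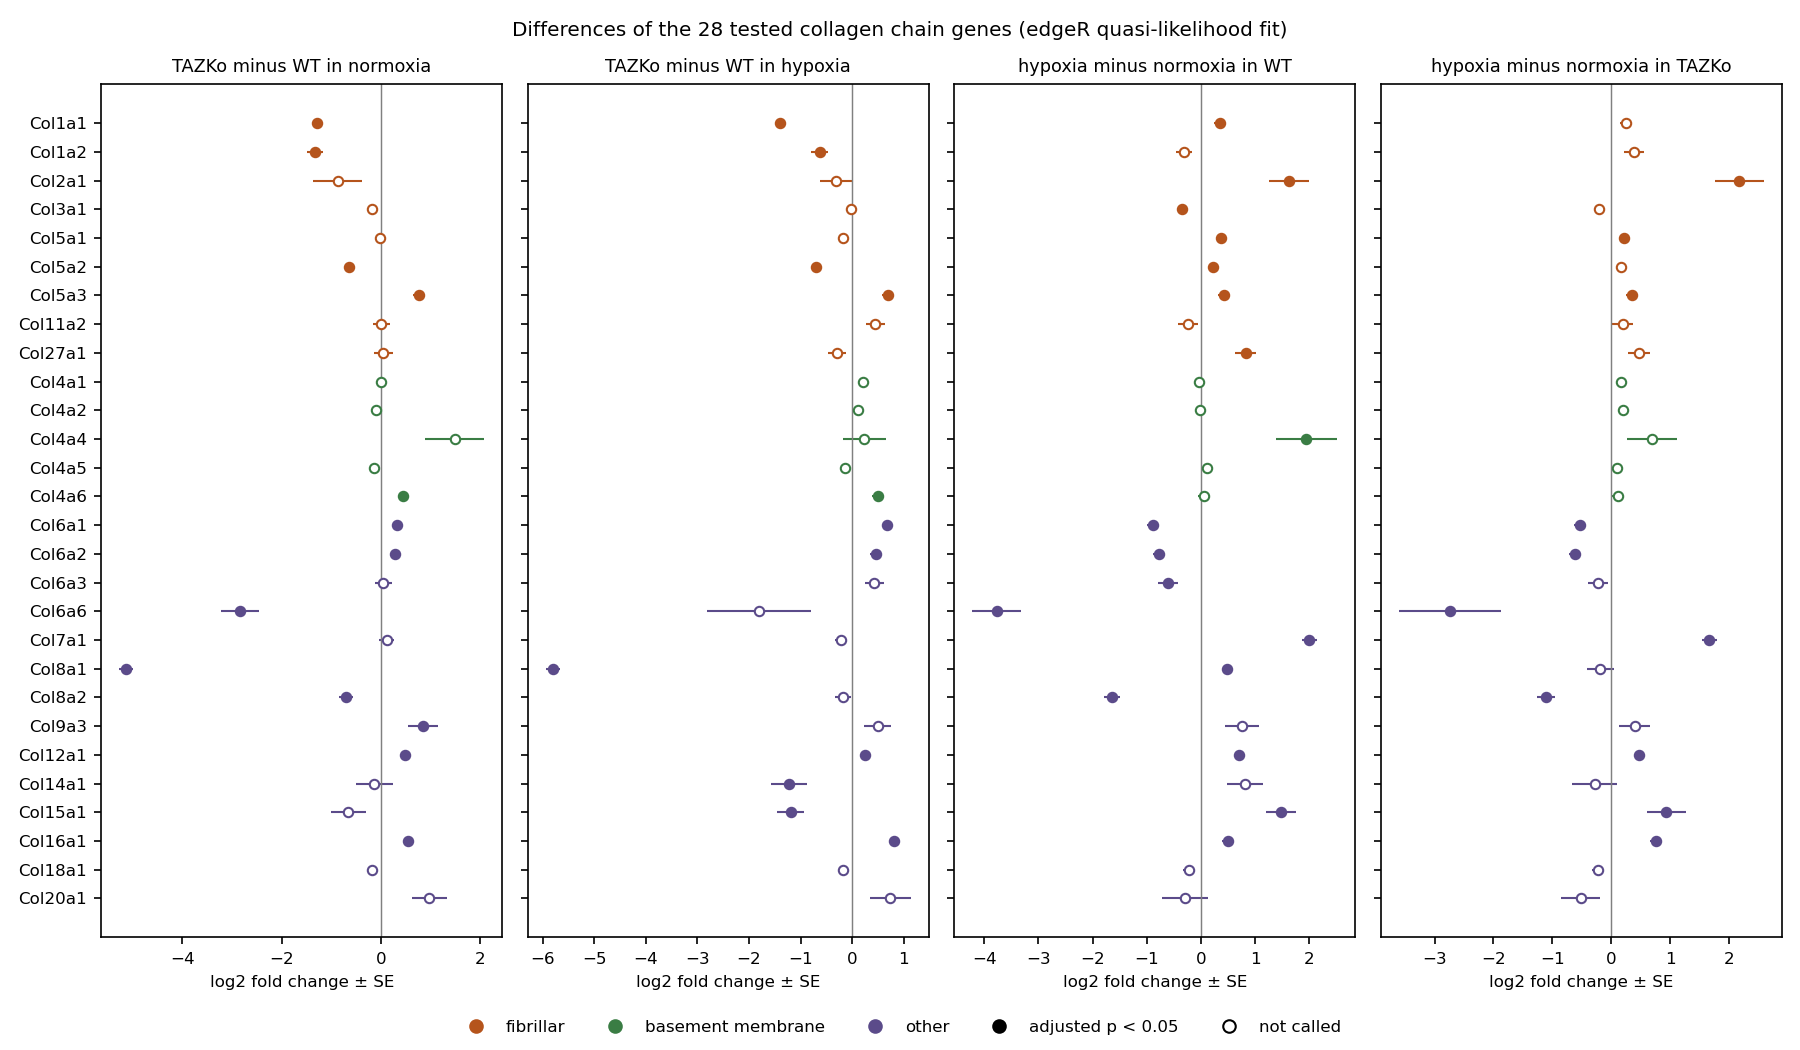
Each panel gives, for 1 comparison, the log2 fold change of the 28 tested chains (points) with its standard error (bars), coloured by class and filled where the adjusted p was under 0.05 in the edgeR quasi-likelihood test; the horizontal scale differs between panels. Col8a1 lies farthest to the left in both genotype comparisons, at -5.13 and -5.80, while the abundant type IV chains Col4a1, Col4a2 and Col4a5 lie near 0 in all 4.

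Among fibrillar chains, those of type I and Col5a2 were lower in TAZKo cells and Col5a3 was higher. Col1a1 (ENSMUSG00000001506, chr11:94936224-94953042), the main chain of type I collagen, read 3296, 2556 and 2653 CPM in normoxic WT and 1137, 1163 and 1159 CPM in normoxic TAZKo. In hypoxia it read 4127, 3197 and 3491 CPM in WT and 1386, 1426 and 1316 CPM in TAZKo. All 6 WT samples lay above all 6 TAZKo samples. The log2 fold change between genotypes was -1.30 ± 0.10 in normoxia (adjusted p = 5.34e-07, edgeR quasi-likelihood test) and -1.39 ± 0.10 in hypoxia (adjusted p = 3.06e-07). Hypoxia raised Col1a1 by 0.35 ± 0.10 in WT cells (edgeR adjusted p = 0.00969), although the samples overlapped, and this call was lost under 3 of 21 alternatives. These were leaving out WT normoxia replicate 3 (0.25, edgeR adjusted p = 0.0792), scaling by library size alone (0.24, adjusted p = 0.0578) and fitting only the 6 samples compared (0.35, adjusted p = 0.0508). In TAZKo cells the difference was 0.25 ± 0.10 and was not called (edgeR adjusted p = 0.0515). It was called under 9 of 21 alternatives. Among these were lane as a covariate (0.29, edgeR adjusted p = 0.0241), the replicate block (0.25, adjusted p = 0.018), the fit of only the 6 samples compared (0.26, adjusted p = 0.000201), no filter (0.23, adjusted p = 0.00293) and a filter at 5 CPM (0.27, adjusted p = 0.0394). The others left out WT normoxia replicate 1 or 2 or WT hypoxia replicate 1 or 2 (0.25, edgeR adjusted p 0.00803 to 0.0439).

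Col1a2, the partner chain of Col1a1 in type I collagen, was far less abundant. It read 5.93, 4.74 and 5.32 CPM in normoxic WT, 1.51, 2.64 and 2.19 in normoxic TAZKo, 4.25, 4.13 and 4.48 in hypoxic WT and 2.77, 2.94 and 2.61 in hypoxic TAZKo. WT and TAZKo samples did not overlap in either condition. Its log2 fold change between genotypes was -1.33 ± 0.16 in normoxia and -0.63 ± 0.16 in hypoxia (adjusted p = 3.61e-05 and 0.00859, edgeR quasi-likelihood test). Neither hypoxia comparison was called for it. None of its 50-base transcript words was shared with another annotated gene.

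Type V chains moved apart. Col5a2, an obligate partner of Col5a1 in most type V molecules, read 2124, 1819 and 1888 CPM in normoxic WT and 1237, 1210 and 1269 CPM in normoxic TAZKo. In hypoxia it read 2569, 2129 and 2061 CPM in WT and 1386, 1474 and 1306 CPM in TAZKo, with no overlap of genotypes in either condition. The fold changes between genotypes were -0.65 ± 0.08 and -0.70 ± 0.08 on the log2 scale (edgeR adjusted p = 6.21e-05 and 3.38e-05). Its rise of 0.21 with hypoxia in WT cells had an adjusted p of 0.049 (edgeR) and was lost under 15 of 21 alternatives. Those included 9 libraries left out in turn, namely all but WT normoxia replicate 1 and WT hypoxia replicates 2 and 3, with values of 0.11 to 0.21 and adjusted p-values of 0.0531 to 0.251.

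Col5a1 itself, the chain present in every type V trimer, read 533, 450.2 and 431 CPM in normoxic WT, 477, 458 and 463 in normoxic TAZKo, 637, 585 and 604 in hypoxic WT and 543, 559 and 520.2 in hypoxic TAZKo. Genotypes were not called apart in either condition. With hypoxia it rose by 0.37 ± 0.07 in WT and by 0.21 ± 0.07 in TAZKo cells on the log2 scale (edgeR adjusted p = 0.000846 and 0.0287). The second call was lost without TAZKo normoxia replicate 2 or 3 or TAZKo hypoxia replicate 1 or 2 (0.19 to 0.21, edgeR adjusted p 0.0722 to 0.0979), with upper quartile scaling (0.19, adjusted p = 0.0624) and with library size alone (0.12, adjusted p = 0.214).

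Col5a3, a minor type V chain, was the only fibrillar chain called higher in TAZKo cells, in both conditions, among the 9 tested. It read 13.1, 9.91 and 11.4 CPM in normoxic WT, 20.2, 18.2 and 20.03 in normoxic TAZKo, 13.96, 15.3 and 16.8 in hypoxic WT and 26.4, 26.0 and 22.3 in hypoxic TAZKo. No 2 groups compared overlapped. The genotype differences were 0.76 ± 0.11 and 0.69 ± 0.11 on the log2 scale in normoxia and hypoxia (edgeR adjusted p = 0.000149 and 0.000237). The hypoxia responses were 0.42 ± 0.11 in WT and 0.35 ± 0.10 in TAZKo cells (edgeR adjusted p = 0.00621 and 0.0139), the latter lost without TAZKo normoxia replicate 2 or TAZKo hypoxia replicate 1 or 2 (0.31 to 0.32, edgeR adjusted p 0.0573 to 0.0605) and with library size alone (0.26, adjusted p = 0.0626).

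Col5a3 was 1 of 5 chains called in all 4 comparisons, with Col6a1, Col6a2, Col12a1 and Col16a1. The 250 bases before its start are shown as an example (RefSeq, GRCm38.p6, chr9:20815068-20815317, minus strand, read 5′ to 3′). Capitals mark matches, on either strand, to any of 7 short motifs. These are 2 cores of the hypoxia response element, spelled ACGTG for the first and GCGTG for the second, the box spelled CCAAT, the TATA box with letters TATAAA, the GC box with letters GGGCGG, the AP-1 site with letters TGANTCA and the SMAD element with letters CAGAC.
Col5a3: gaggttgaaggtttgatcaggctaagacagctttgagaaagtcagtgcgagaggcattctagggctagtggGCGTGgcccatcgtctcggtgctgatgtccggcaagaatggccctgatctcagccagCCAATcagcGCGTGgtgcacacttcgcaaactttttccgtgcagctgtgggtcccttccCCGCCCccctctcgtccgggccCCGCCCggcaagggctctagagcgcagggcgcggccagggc
The stretch held the second core at positions -179 and -113 from the start, the CCAAT box at -122 and GC boxes at -63 and -41. Of the other chains called in all 4 comparisons, Col16a1 held the second core at -219 and a window of Col6a2 at -168. Col6a1 held neither core, and no promoter of Col12a1 was available. Of 32851 RefSeq promoters of this length, 28.2% held the second core, 33.9% the CCAAT box and 32.7% the GC box, and 8, 13 and 21 of the 35 collagen genes with a promoter in the table did. The first core was held by 16.6% of all promoters and 5 collagen genes, the TATA box by 12.4% and 5, the AP-1 site by 6.75% and 1, and the SMAD element by 42.2% and 17. A match is a description of the letters, not a site of binding.

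Col3a1, the chain of type III collagen, read 844, 686 and 718 CPM in normoxic WT, 656, 645 and 680.4 in normoxic TAZKo, 668, 555 and 539 in hypoxic WT and 559, 597 and 569 in hypoxic TAZKo. It was called only for its fall with hypoxia in WT cells (log2 fold change -0.35 ± 0.09, adjusted p = 0.0041, edgeR quasi-likelihood test). Col1a1 and Col3a1, the 2 fibrillar chains best known as fibroblast products, thus had opposite signs in that comparison.

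Among the scarce fibrillar chains, Col2a1 rose with hypoxia in both genotypes and Col27a1 in WT cells. Col2a1, the chain of cartilage type II collagen, had 11, 12 and 14 counts in normoxic WT, 5, 3 and 14 in normoxic TAZKo, 18, 29 and 65 in hypoxic WT and 26, 34 and 39 in hypoxic TAZKo. In CPM these were 0.487, 0.526 and 0.507, then 0.21, 0.13 and 0.433, then 0.9, 1.30 and 2.37, and last 1.26, 1.18 and 1.36. Hypoxia samples lay above normoxia samples in both genotypes, by 1.62 ± 0.37 in WT and 2.18 ± 0.41 in TAZKo on the log2 scale (edgeR adjusted p = 0.0021 and 0.000791). The list of 5 chondrocyte markers includes Col2a1 itself. Of the others, Sox9 averaged 0.821 and 1.38 CPM in normoxic WT and TAZKo and 6.12 and 6.37 CPM in hypoxic WT and TAZKo. Acan, Col9a1 and Matn1 never passed 3 counts. The part of chondrocytes in the Col2a1 difference was not tested. Col27a1, a cartilage-associated fibrillar chain, read 3.85, 3.16 and 2.64 CPM in normoxic WT, 4.17, 2.64 and 3.12 in normoxic TAZKo, 5.25, 5.38 and 6.26 in hypoxic WT and 5.15, 3.70 and 5.02 in hypoxic TAZKo. It rose in WT cells by 0.82 ± 0.19 (edgeR adjusted p = 0.0023) and was not called in TAZKo cells, where normoxia and hypoxia samples overlapped. Col11a2, at 2.70 to 4.64 CPM, was called in no comparison.

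**Figure D3:**
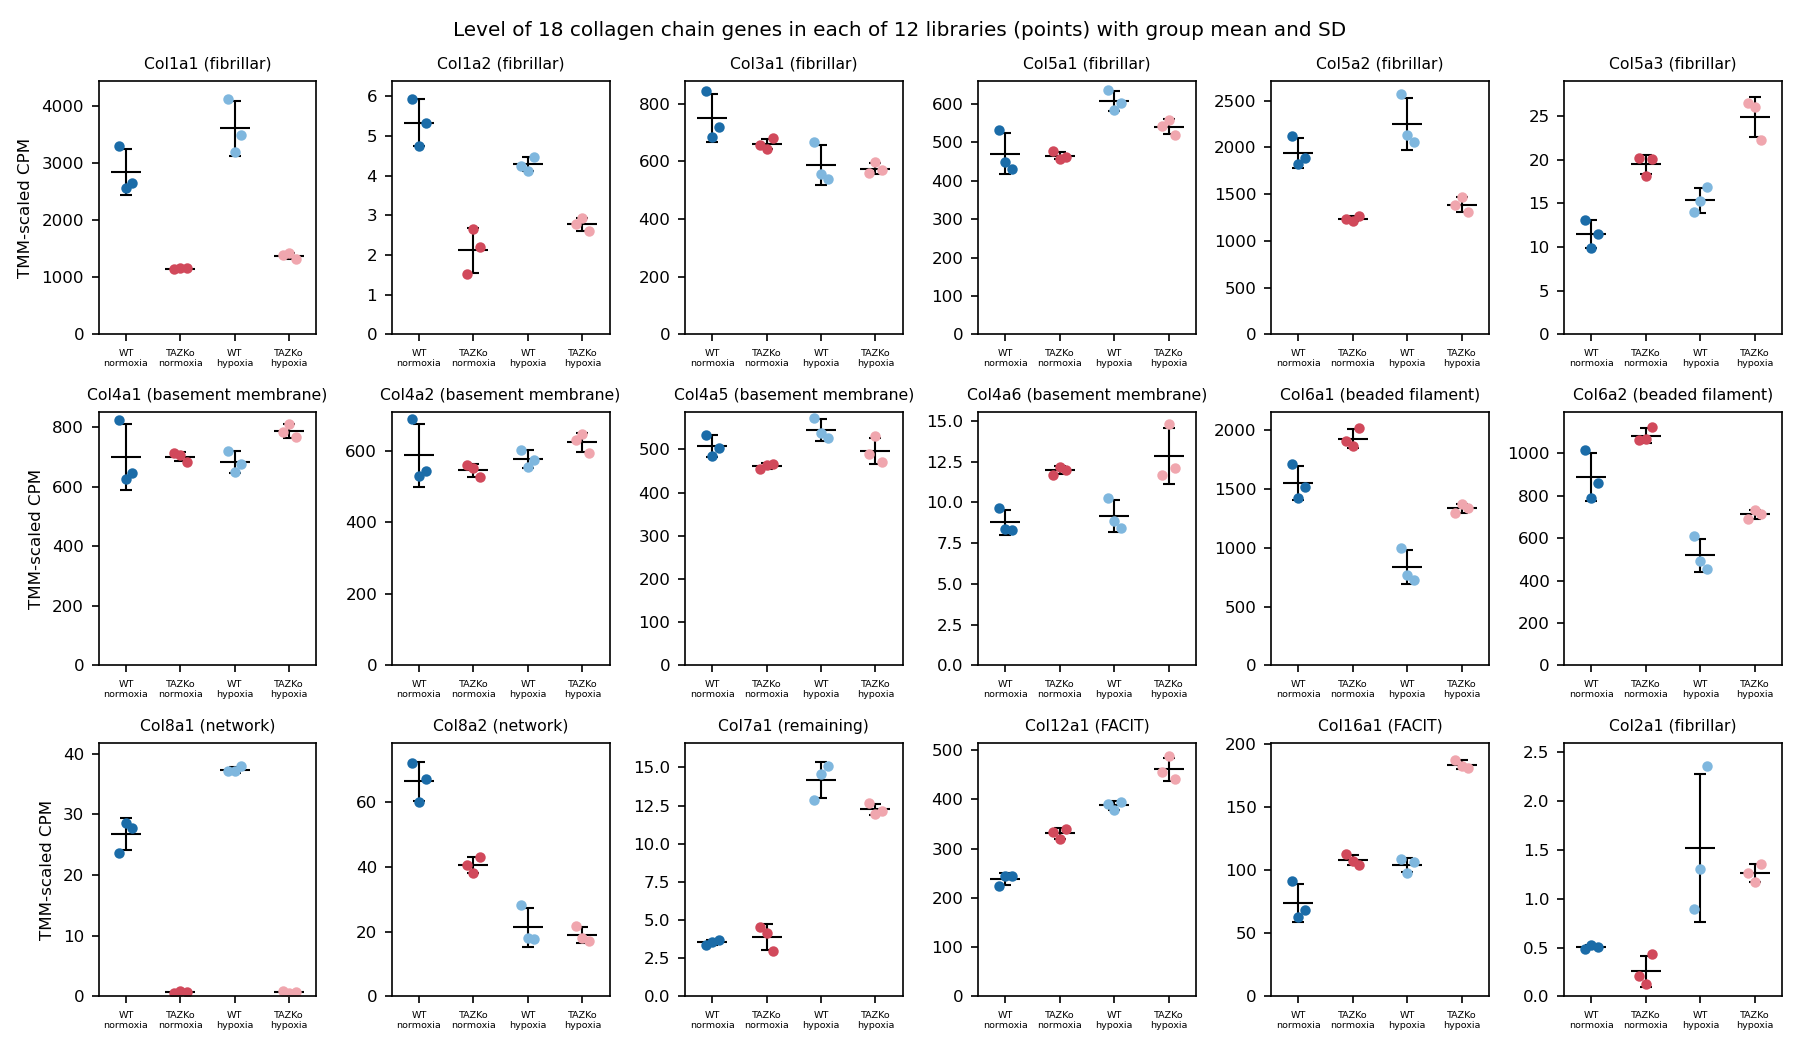
Each panel gives the TMM-scaled CPM of 1 chain in all 12 libraries (points; linear axis from 0), with the group mean and SD (bars) and the class of the chain in brackets. Col1a1, Col1a2 and Col5a2 sit lower in both TAZKo groups, Col8a1 sits below 0.9 CPM there, Col6a1 and Col6a2 sit lower in hypoxia, and Col7a1 sits at 11.97 CPM or above in hypoxia and at 4.54 CPM or below in normoxia.

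The abundant type IV chains were the steadiest collagens of the cells. Col4a1 and Col4a2, which assemble into the common type IV trimer and lie head to head on chromosome 8 (chr8:11198423-11312826 and chr8:11312805-11449287), read 626 to 825 and 526 to 689 CPM over the 12 samples. Col4a5, of the X chromosome, read 453 to 573 CPM. None of these 3 was called in any comparison. Their fold changes were small but were not shown to be 0: genes on chromosome 8 had median log2 fold changes of -0.16 and -0.15 between genotypes (796 genes), against which Col4a1 and Col4a2 were not tested.

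Col4a6, which pairs with Col4a5 in smooth muscle and skin basement membranes, was the exception among the type IV chains above 1 CPM. It read 9.69, 8.38 and 8.33 CPM in normoxic WT, 11.7, 12.2 and 12.02 in normoxic TAZKo, 10.3, 8.84 and 8.44 in hypoxic WT and 11.7, 14.8 and 12.1 in hypoxic TAZKo. TAZKo samples lay above WT samples in both conditions, by 0.45 ± 0.11 and 0.49 ± 0.11 on the log2 scale (edgeR adjusted p = 0.0078 and 0.00369). Hypoxia did not give a call for it. Col4a4, of the kidney and inner ear network, was near the floor, with 0, 6 and 6 counts in normoxic WT, 14, 9 and 14 in normoxic TAZKo, 8, 23 and 14 in hypoxic WT and 12, 27 and 21 in hypoxic TAZKo. Its rise with hypoxia in WT cells was called (1.95 ± 0.57, edgeR adjusted p = 0.0112) and was lost without WT hypoxia replicate 2 (1.47, adjusted p = 0.0649). Between genotypes in normoxia it was not called (1.48, edgeR adjusted p = 0.0759) but was with the replicate number as a block (1.51, adjusted p = 0.0491), without a filter (1.46, adjusted p = 0.0173) and by DESeq2 (1.51, adjusted p = 0.0454).

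Of the 4 beaded filament chains tested, Col6a1, Col6a2 and Col6a6 fell with hypoxia in both genotypes, and Col6a1 and Col6a2 were called higher in TAZKo cells. Col6a1 (ENSMUSG00000001119, chr10:76708792-76726168), a core chain of type VI collagen, read 1709, 1421 and 1515 CPM in normoxic WT and 998, 772 and 728 CPM in hypoxic WT. In TAZKo cells it read 1902, 1862 and 2016 CPM in normoxia and 1295, 1368 and 1338 CPM in hypoxia. No 2 groups compared overlapped. Its fall with hypoxia was -0.89 ± 0.10 in WT and -0.53 ± 0.10 in TAZKo cells on the log2 scale (adjusted p = 7.62e-06 and 0.000832, edgeR quasi-likelihood test). Between genotypes it was higher in TAZKo by 0.32 ± 0.10 in normoxia and 0.68 ± 0.10 in hypoxia (edgeR adjusted p = 0.03 and 0.000187). The normoxia call was lost when WT normoxia replicate 2 or 3 or any TAZKo normoxia replicate was left out (0.26 to 0.34, edgeR adjusted p 0.0531 to 0.107).

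Its neighbour Col6a2 (chr10:76595762-76623630), which joins it in the trimer, read 1014, 790.2 and 859 CPM in normoxic WT and 608, 492 and 455 CPM in hypoxic WT. The TAZKo samples read 1062, 1065 and 1123 CPM in normoxia and 689.6, 733 and 711 CPM in hypoxia. Its log2 fold change with hypoxia was -0.78 ± 0.10 in WT and -0.61 ± 0.10 in TAZKo cells (edgeR adjusted p = 2.9e-05 and 0.000317). TAZKo exceeded WT by 0.46 ± 0.10 in hypoxia (edgeR adjusted p = 0.00371). In normoxia the excess of 0.29 had an adjusted p of 0.0474 (edgeR) and was lost under 14 of 21 alternatives. Among them were 9 libraries left out in turn, all but WT normoxia replicate 1 and WT hypoxia replicates 1 and 3 (0.21 to 0.30, adjusted p 0.0583 to 0.166).

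Both genes lie on chromosome 10, where the 676 tested genes had median log2 fold changes of 0.31 in normoxia and 0.29 in hypoxia between genotypes. Less these medians, Col6a1 differed by 0.0013 and 0.39 and Col6a2 by -0.03 and 0.17. Col18a1, also on chromosome 10, was called between genotypes in neither condition. Whether the shift of chromosome 10 enters the Col6a1 and Col6a2 differences was not tested.

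Col6a3, the long chain without which type VI collagen is not secreted in its usual form, was scarce. It read 1.90, 1.58 and 1.81 CPM in normoxic WT, 1.60, 1.82 and 2.01 in normoxic TAZKo, 1.10, 1.08 and 1.27 in hypoxic WT and 1.65, 1.28 and 1.78 in hypoxic TAZKo. It fell with hypoxia in WT cells (-0.61 ± 0.19, edgeR adjusted p = 0.0144) and was called in no other comparison. Col6a6, a chain closely related to it, had 15, 17 and 30 counts in normoxic WT and 1, 1 and 2 in hypoxic WT. The pooled ratio of normoxia to hypoxia was 14.8 (95% interval 5.50 to 56.1, exact binomial, counting error only), and the gene was called lower in hypoxia (edgeR adjusted p = 1.14e-05). TAZKo normoxia samples had 3, 2 and 4 counts, so that WT exceeded TAZKo by a pooled ratio of 7.47 (interval 3.69 to 17.1, edgeR adjusted p = 7.06e-05). TAZKo hypoxia samples had 0, 1 and 0 counts. The call of a fall with hypoxia in TAZKo cells (edgeR adjusted p = 0.0203) was lost without TAZKo normoxia replicate 3 or TAZKo hypoxia replicate 1 or 3 (adjusted p 0.0566 to 0.0947) and by DESeq2 (adjusted p = 0.0572). Of the 50-base transcript words of Col6a6, 3.88% occur in other annotated genes, among them Col6a5, so its counts are uncertain.

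The network chains held the largest difference among the 28 chains. Col8a1 (ENSMUSG00000068196, chr16:57624258-57754737), a short chain of type VIII collagen found under endothelia and in vessel walls, read 23.7, 28.6 and 27.8 CPM in normoxic WT and 37.1, 37.1 and 37.9 CPM in hypoxic WT. In TAZKo cells it read 0.631, 0.867 and 0.773 CPM in normoxia and 0.875, 0.519 and 0.662 CPM in hypoxia. Every TAZKo sample was above the floor of 3 counts and under 1 CPM. The log2 fold change between genotypes was -5.13 ± 0.14 in normoxia (35.0-fold, adjusted p = 3.25e-11, edgeR quasi-likelihood test) and -5.80 ± 0.14 in hypoxia (55.6-fold, adjusted p = 1.27e-11). Hypoxia raised Col8a1 in WT cells by 0.48 ± 0.09 (edgeR adjusted p = 0.00051), while in TAZKo cells the difference was -0.18 ± 0.23 (edgeR adjusted p = 0.603) and the samples overlapped. The sum of 5 endothelial markers, mostly Tek and Kdr, was 14.6 to 21.2 CPM in WT and 4.28 to 7.88 CPM in TAZKo samples. Cdh5 was at or under 3 counts in every sample. The scarce Pecam1 and Vwf did not follow Tek and Kdr. Pecam1 averaged 0.227 and 0.577 CPM in normoxic WT and TAZKo and 0.234 and 0.195 in hypoxic WT and TAZKo. Vwf averaged 0.178 and 0.272 CPM in normoxia and 0.0997 and 0.389 in hypoxia. The part of endothelial cells in the Col8a1 difference was not tested.

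Its partner Col8a2 (chr4:126286793-126314330) changed far less. It read 71.9, 60.0 and 67.1 CPM in normoxic WT, 40.5, 38.1 and 42.9 in normoxic TAZKo, 28.3, 17.99 and 17.7 in hypoxic WT and 21.7, 17.9 and 17.2 in hypoxic TAZKo. Hypoxia lowered it in both genotypes, with log2 fold changes of -1.65 ± 0.15 in WT and -1.11 ± 0.15 in TAZKo cells (edgeR adjusted p = 1.07e-06 and 6.07e-05). Normoxic TAZKo samples were lower than normoxic WT samples (-0.71 ± 0.15, edgeR adjusted p = 0.00213), while under hypoxia the samples of the genotypes overlapped (-0.17 ± 0.16, edgeR adjusted p = 0.447). That last value changed sign without WT hypoxia replicate 1 (0.08, edgeR adjusted p = 0.635). The 2 type VIII chains therefore had opposite signs with hypoxia in WT cells.

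The promoters of both type VIII genes are shown because the chains of 1 molecule differed so unlike each other between genotypes (RefSeq, GRCm38.p6; Col8a1 at chr16:57754738-57754987, minus strand, and Col8a2 at chr4:126286544-126286793, plus strand). They are written 5′ to 3′, with matches to the same 7 motifs in capitals.
Col8a1: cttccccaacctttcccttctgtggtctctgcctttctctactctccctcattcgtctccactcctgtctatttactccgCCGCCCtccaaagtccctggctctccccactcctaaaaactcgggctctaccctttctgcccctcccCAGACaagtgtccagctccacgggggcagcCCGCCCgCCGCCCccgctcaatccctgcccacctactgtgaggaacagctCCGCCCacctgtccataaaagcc
Col8a2: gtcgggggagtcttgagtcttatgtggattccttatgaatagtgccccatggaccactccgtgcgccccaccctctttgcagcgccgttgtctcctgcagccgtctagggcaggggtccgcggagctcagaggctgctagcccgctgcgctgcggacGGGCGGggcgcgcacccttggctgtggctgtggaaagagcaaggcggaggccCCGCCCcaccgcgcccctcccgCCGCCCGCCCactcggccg
Each stretch held 4 GC boxes, in Col8a1 at -170, -73, -66 and -23 and in Col8a2 at -93, -41, -19 and -15, the last pair overlapping. Col8a1 also held the SMAD element at -103. Neither held a hypoxia response element core, a CCAAT box or a TATA box in this window. G and C made up 60.8% of the first and 70% of the second, against a median of 52.4% over all promoters.

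Col7a1 (chr9:108953586-108984875), the chain of anchoring fibrils, had the largest rise with hypoxia among the chains above 3 CPM. It read 3.36, 3.55 and 3.69 CPM in normoxic WT and 12.9, 14.6 and 15.1 CPM in hypoxic WT. TAZKo samples read 4.54, 4.16 and 2.97 CPM in normoxia and 12.6, 11.97 and 12.1 CPM in hypoxia. The log2 fold change with hypoxia was 2.001 ± 0.13 in WT and 1.67 ± 0.13 in TAZKo cells (adjusted p = 4.16e-08 and 3.35e-07, edgeR quasi-likelihood test). Genotypes were not called apart in either condition. The 250 bases before its start (RefSeq, GRCm38.p6, chr9:108953336-108953585, plus strand) are shown for this rise, with motif matches in capitals.
Col7a1: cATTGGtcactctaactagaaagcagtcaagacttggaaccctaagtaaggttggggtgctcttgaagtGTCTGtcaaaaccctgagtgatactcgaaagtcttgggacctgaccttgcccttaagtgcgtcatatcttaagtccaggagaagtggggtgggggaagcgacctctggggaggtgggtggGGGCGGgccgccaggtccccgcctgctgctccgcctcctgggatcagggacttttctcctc
They held the CCAAT box at -249, the SMAD element at -181 and a GC box at -61, and neither hypoxia response element core.

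The FACIT chains Col12a1 and Col16a1 rose with hypoxia in both genotypes and were higher in TAZKo cells. Col12a1, which coats type I fibrils, read 224, 245 and 245 CPM in normoxic WT, 334, 319 and 340.4 in normoxic TAZKo, 391, 378 and 395 in hypoxic WT and 456, 487 and 441 in hypoxic TAZKo. The groups stood in this order without overlap. Hypoxia raised it by 0.71 ± 0.06 in WT and 0.48 ± 0.06 in TAZKo cells (edgeR adjusted p = 3.73e-07 and 2.13e-05), and TAZKo exceeded WT by 0.48 ± 0.06 in normoxia and 0.25 ± 0.06 in hypoxia (edgeR adjusted p = 3.65e-05 and 0.00494). Col16a1, a minor fibril-associated chain, read 91.0, 62.8 and 68.1 CPM in normoxic WT, 112, 107 and 104 in normoxic TAZKo, 108, 97.9 and 106 in hypoxic WT and 187, 182 and 180.5 in hypoxic TAZKo. It rose with hypoxia by 0.50 ± 0.11 in WT and 0.76 ± 0.10 in TAZKo cells (edgeR adjusted p = 0.00147 and 5.96e-05). Between genotypes it was higher in TAZKo by 0.55 ± 0.11 and 0.81 ± 0.11 in normoxia and hypoxia (edgeR adjusted p = 0.00144 and 5.54e-05).

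Rarer chains of these groups gave less stable calls. Col15a1, a multiplexin of basement membrane zones, read 1.15, 1.10 and 0.507 CPM in normoxic WT, 0.421, 0.607 and 0.649 in normoxic TAZKo, 1.75, 2.83 and 2.84 in hypoxic WT and 1.12, 0.899 and 1.25 in hypoxic TAZKo. It rose with hypoxia in WT cells (1.47 ± 0.28, edgeR adjusted p = 0.000618) and was lower in TAZKo than in WT cells in hypoxia (-1.20 ± 0.27, adjusted p = 0.00374). Its rise in TAZKo cells (0.94 ± 0.33, edgeR adjusted p = 0.036) was lost without any 1 of the TAZKo normoxia replicates or TAZKo hypoxia replicate 1 or 3 (0.78 to 1.08, adjusted p 0.0563 to 0.123), with lane as a covariate (0.91, adjusted p = 0.0524) and with library size alone (0.84, adjusted p = 0.0561). Col14a1, another FACIT, read 0.873 to 1.12 CPM in hypoxic WT and 0.244 to 0.742 CPM elsewhere, and was lower in TAZKo cells in hypoxia (-1.22 ± 0.35, edgeR adjusted p = 0.0163). That call was lost without WT hypoxia replicate 2 or TAZKo hypoxia replicate 3 (-1.10 and -0.93, edgeR adjusted p 0.0612 and 0.08). Col18a1, the source of endostatin, read 26.7 to 40.4 CPM and was called in no comparison; with the replicate number as a block, its fall with hypoxia in WT cells was (-0.23, edgeR adjusted p = 0.0216). That fall was also called without WT normoxia replicate 2 or 3 or WT hypoxia replicate 1 (-0.36 to -0.29, edgeR adjusted p 0.00469 to 0.0487), with upper quartile scaling, with library size alone and without a filter (-0.34 to -0.29, adjusted p 0.0054 to 0.0298).

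Col9a3, a cartilage FACIT chain, read 0.487, 0.658 and 0.435 CPM in normoxic WT, 1.22, 0.65 and 0.958 in normoxic TAZKo, 0.7, 0.987 and 0.946 in hypoxic WT and 1.12, 1.003 and 1.60 in hypoxic TAZKo. Its difference between genotypes in normoxia (0.85 ± 0.31, edgeR adjusted p = 0.0496) was lost with the replicate block (0.85, adjusted p = 0.0538), with lane as a covariate (0.85, adjusted p = 0.0567) and under 17 of 20 alternatives in all. These included 9 libraries left out in turn, all but WT normoxia replicate 2, TAZKo normoxia replicate 2 and TAZKo hypoxia replicate 3 (0.65 to 0.85, edgeR adjusted p 0.0501 to 0.169). Up to 6.17% of its 50-base transcript words occur in another annotated gene, so its counts are uncertain. That gene, Tcfl5, had at most 2 counts in any library. Col20a1 shares 1.54% of its exon bases with BX649560.1, which had up to 476 counts, so its counts are uncertain too. Col20a1, at 0.3 to 1.51 CPM, was not called between genotypes in normoxia (0.97, edgeR adjusted p = 0.0515) but was with the replicate block (0.96, adjusted p = 0.0189), with lane as a covariate (0.96, adjusted p = 0.045), without a filter (0.94, adjusted p = 0.00955), in the fit of only the 6 samples compared (0.97, adjusted p = 0.0448) and without WT normoxia replicate 2, WT hypoxia replicate 1 or 3 or TAZKo hypoxia replicate 3 (0.97 to 1.18, adjusted p 0.0283 to 0.0489).

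The 16 chains that did not pass the filter had at most 9 counts, or 0.359 CPM, in any library. Col9a1 had 0 counts in all 12, and 8 of the 16 never passed 3 counts. They include the fibrillar chains Col11a1 and Col24a1, the type IV chain Col4a3 and the hypertrophic cartilage chain Col10a1. They were left out of the main test by the filter. Groups of these chains could still differ in counts: Col6a5, a type VI chain picked out after its values were seen, had 4, 5 and 9 counts in hypoxic WT and 1, 1 and 1 in hypoxic TAZKo. No test is given for it. Of its 50-base transcript words, 3.485% occur in Col6a6, so its counts are uncertain.

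Chains that assemble into 1 molecule were compared as ratios within each library, which leaves library scaling out. For 7 pairs in 4 comparisons, exact two-sided permutation of 3 against 3 samples gave the smallest possible p of 0.1 in 16 of 28 tests, and the smallest value after Benjamini-Hochberg adjustment was 0.175, so no ratio difference could pass the threshold. Col4a1 and Col4a2 kept nearly equal levels per length, with ratios of 1.04 to 1.06 in the WT samples and 1.10 to 1.15 in the TAZKo samples. Col1a1 exceeded Col1a2 by 833- to 1838-fold per length over all samples, and Col6a1 exceeded Col6a2 by 2.99- to 3.58-fold. As raw counts these ratios ran from 440 to 971 and from 1.57 to 1.88. Length is that of all annotated exons, merged. It can exceed the longest transcript, with 8326 against 4912 bases for Col6a2, 12426 against 5348 for Col1a2 and 7833 against 5108 for Col8a1. Ratios per length thus depend on the annotation, while their differences between groups do not. Col5a1 to Col5a2 ran from 0.258 to 0.331 in WT and from 0.412 to 0.450 in TAZKo samples. Col4a5 exceeded Col4a6 by 65.4- to 73.9-fold in WT and 42.4- to 49.7-fold in TAZKo samples. Col8a1 to Col8a2 per length was 0.189 to 0.273 in normoxic WT, 0.752 to 1.23 in hypoxic WT, 0.00893 to 0.0130 in normoxic TAZKo and 0.0166 to 0.0231 in hypoxic TAZKo.

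**Figure D4:**
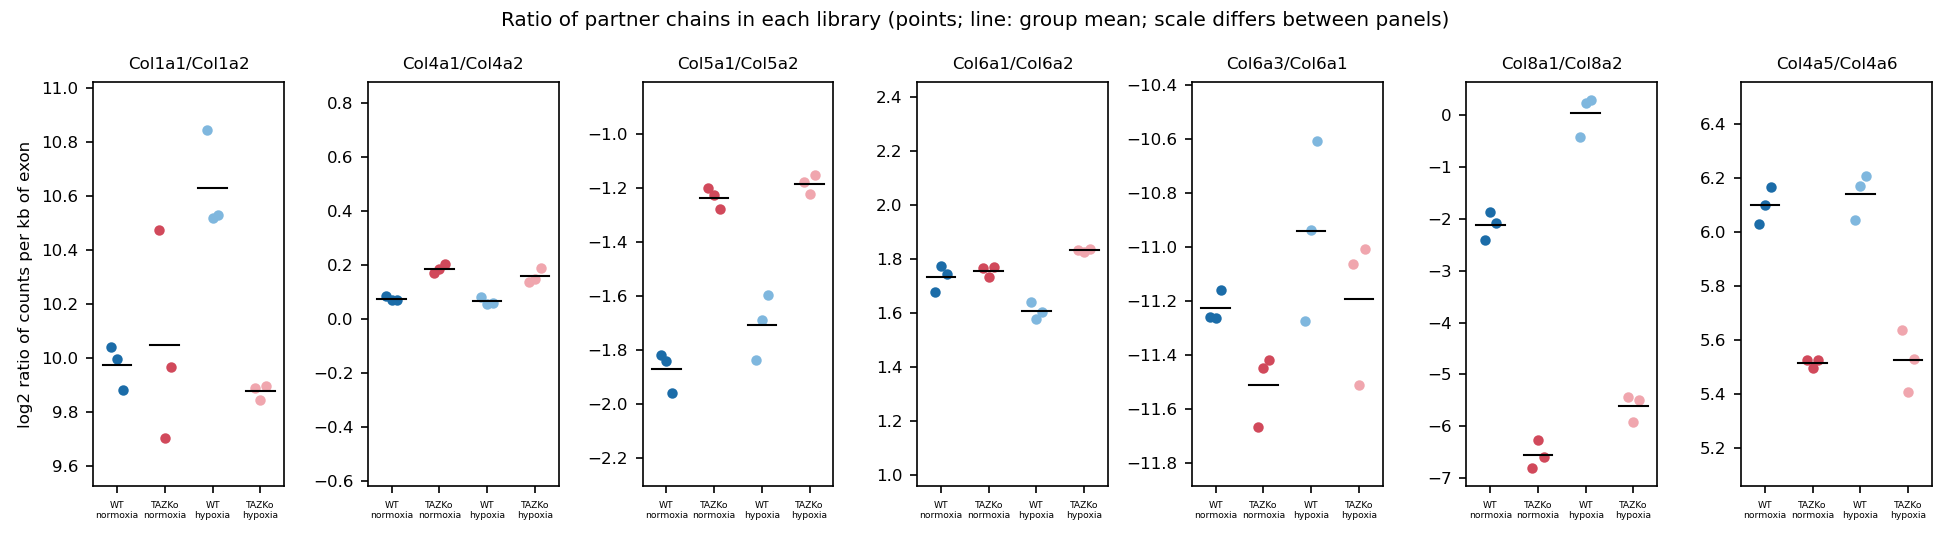
Points give, for 7 pairs of partner chains, the log2 ratio of counts per kilobase of exon in each library, and lines give group means; the vertical scale differs between panels. The Col8a1 to Col8a2 ratio covers the widest range, with group means from -6.56 to 0.04, and the Col4a1 to Col4a2 ratio stays between group means of 0.07 and 0.19.

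The interaction asks whether hypoxia acted differently in TAZKo and WT cells. None of the 28 chains was called for it by the edgeR quasi-likelihood test, against 2.43% of all genes, and DESeq2 called 0. An unadjusted p under 0.05 was found for 5 chains (15.8% of all genes). These were Col1a2 (0.70 ± 0.23 on the log2 scale, edgeR adjusted p = 0.147), Col8a1 (-0.67 ± 0.25, adjusted p = 0.199), Col8a2 (0.54 ± 0.21, adjusted p = 0.227), Col6a1 (0.36 ± 0.14, adjusted p = 0.224) and Col12a1 (-0.23 ± 0.08, adjusted p = 0.183). Positive values mean a less negative or more positive hypoxia response in TAZKo cells. Col8a2 and Col6a1 were called when WT hypoxia replicate 1 was left out (0.79 and 0.51, edgeR adjusted p = 0.00966 and 0.0146). Testing all genes, low counts included, called them too (0.59 and 0.42, edgeR adjusted p = 0.00101 and 0.00162).

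Genes that fold, modify and process procollagen had 30 of 33 members tested. Between genotypes, 6 were higher and 7 lower in TAZKo cells in normoxia, and 13 higher and 6 lower in hypoxia. Hypoxia raised 11 and lowered 13 in WT cells, and raised 13 and lowered 9 in TAZKo cells. Of all genes tested, 30.4%, 32.8%, 51% and 43.8% were called in these 4 comparisons. The median log2 fold changes of the list were -0.06, 0.08, 0.02 and 0.13, beside 0.01, -0.01, 0.01 and -0.01 over all genes. Among members averaging at least 10 CPM in a compared group, to which all genes named below belong unless said otherwise, the largest rises with hypoxia were those of the prolyl hydroxylase subunit P4ha2 (log2 fold change 2.61 in WT, 2.80 in TAZKo), the crosslinking lysyl oxidase Loxl2 (2.39, 2.50) and the lysyl hydroxylase Plod2 (1.98, 2.14). The largest falls in that range were those of the procollagen protease Adamts14 (-1.25), P3h4 (-0.83) and Loxl3 (-0.78) in WT cells, and of Adamts14 (-1.24), Fkbp14 (-0.49) and the collagen chaperone Serpinh1 (-0.48) in TAZKo cells. Between genotypes in normoxia, Loxl4 (1.94), P3h2 (0.94) and P3h3 (0.55) were highest in TAZKo relative to WT, and Adamts3 (-1.51), Lox (-0.52) and Loxl2 (-0.35) lowest. In hypoxia these were Loxl4 (2.03), Pcolce (0.77) and P3h2 (0.75), and Adamts3 (-0.86), Loxl2 (-0.24) and Mia3 (-0.21). The lysyl hydroxylase Plod1 (0.58) and the prolyl hydroxylase P4ha1 (0.38) were called for the interaction, both with a more positive hypoxia response in TAZKo cells. The subunit P4ha3, under 10 CPM and singled out after its values were seen, averaged 7.11 and 3.63 CPM in normoxic and hypoxic WT and 1.63 and 0.526 CPM in TAZKo cells (edgeR adjusted p = 3.3e-07 and 3.94e-07 between genotypes). The Lox call was lost without each of 4 single libraries (-0.55 to -0.35, edgeR adjusted p 0.0568 to 0.106), that of Mia3 without each of 5 (-0.22 to -0.18, adjusted p 0.0573 to 0.101) and that of P4ha1 without each of 6 (0.34 to 0.39, adjusted p 0.0509 to 0.0738).

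Of 7 fibril-associated matrix genes tested, 3 were higher and 1 lower in TAZKo cells in each condition. The lower one was Bgn, a small proteoglycan that binds fibrils (-3.60 in normoxia, -4.17 in hypoxia, log2 scale), and the higher ones were Tnxb (0.73, 0.67), Fmod (0.41, 0.41) and Fn1 (0.37, 0.34). With hypoxia 6 fell and 1 rose in WT cells and 5 fell and 1 rose in TAZKo cells, with falls of Fmod (-0.92, -0.93), Bgn (-0.84, -1.40) and the fibril-binding Dcn (-0.83, -0.87). The single rise was that of Thbs2, under 10 CPM and named after its values were seen, which averaged 0.0268 and 0.0247 CPM in normoxic WT and TAZKo cells, under the floor, and 0.747 and 1.84 CPM in hypoxia. The called shares of all genes were 30.4% and 32.8% between genotypes and 51% and 43.8% with hypoxia, and the medians of this list were 0.10, 0.34, -0.71 and -0.77. The Fmod calls between genotypes were lost without each of 8 single libraries in normoxia (0.35 to 0.46, edgeR adjusted p 0.0581 to 0.143) and of 9 in hypoxia (0.27 to 0.42, adjusted p 0.0545 to 0.186). Bgn thus resembled Col8a1 in its direction between genotypes but not in its response to hypoxia in WT cells.

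Of 12 basement membrane partners tested, 4 were higher and 3 lower in TAZKo cells in normoxia, and 5 higher and 4 lower in hypoxia. The linker Nid1 (0.32 in normoxia, 0.44 in hypoxia), Lamb2 (0.24, 0.69) and the proteoglycan Hspg2 (0.22, 0.57) were higher, and Lamc1 (-0.34, -0.29) lower, on the log2 scale. Hypoxia raised 5 and lowered 4 in WT cells and raised 7 and lowered 1 in TAZKo cells. Beside these counts stand 30.4% and 32.8% of all genes called between genotypes and 51% and 43.8% with hypoxia, and list medians of 0.03, 0.06, 0.23 and 0.33. The laminin chain Lamb3 (2.17 in WT, 2.11 in TAZKo) and Nid1 (0.89, 1.01) rose, while Nid2 (-0.37), Lamb2 (-0.30) and Lamc1 (-0.29) fell in WT cells and Lamc1 (-0.23) in TAZKo cells. Lama4, under 10 CPM and singled out after its values were seen, averaged 1.22 and 0.631 CPM in normoxic and hypoxic WT and 0.2 and 0.187 CPM in TAZKo cells. The normoxia calls of Lamb2 and Hspg2 were lost without each of 5 and 6 single libraries (0.17 to 0.26, edgeR adjusted p 0.0549 to 0.148). The abundant type IV chains Col4a1, Col4a2 and Col4a5 gave no call beside these changes.

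Of 10 collagen receptor and turnover genes tested, 1 was higher and 4 lower in TAZKo cells in normoxia, and 4 higher and 2 lower in hypoxia. The receptor Ddr2 was higher in both (1.10, 0.81), Ddr1 lower in both (-0.50, -0.27), Mmp2 lower in normoxia and higher in hypoxia (-0.42, 0.27), Mmp14 lower in normoxia (-0.25) and Mrc2 higher in hypoxia (0.37). With hypoxia, 2 rose and 4 fell in WT cells, among them Ddr2 (0.31), Itgb1 (0.28), Mmp14 (-0.88), Mmp2 (-0.68) and Ddr1 (-0.39). In TAZKo cells 1 rose, Mrc2 (0.28), and 2 fell, among them Mmp14 (-0.46). The counts compare with 30.4% and 32.8% of all genes called between genotypes and 51% and 43.8% with hypoxia, and the list medians were 0.09, 0.14, -0.28 and -0.27. The gelatinase Mmp2 was called for the interaction (0.69), where 2.43% of all genes were. Mmp13, a collagenase under 10 CPM singled out after its values were seen, averaged 5.61 and 2.61 CPM in normoxic and hypoxic WT and 1.32 and 0.512 CPM in TAZKo cells. Calls lost without single libraries were those of Mmp14 in normoxia (8 libraries, -0.28 to -0.18, edgeR adjusted p 0.0541 to 0.145), Ddr1 (3 libraries, -0.27 to -0.18, adjusted p 0.0556 to 0.0917) and Mmp2 (9 libraries, 0.20 to 0.28, adjusted p 0.0572 to 0.187) between genotypes in hypoxia, Mrc2 in TAZKo hypoxia (4 libraries, 0.25 to 0.28, adjusted p 0.0541 to 0.0721) and Mmp2 in the interaction (7 libraries, 0.62 to 0.69, adjusted p 0.0509 to 0.0657).

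Of 11 genes of the TGF-beta input to collagen genes, all tested, 3 were higher and 4 lower in TAZKo cells in normoxia, and 3 higher and 6 lower in hypoxia. Tgfb1 (0.44, 0.57) and Tgfbr2 (0.40, 0.40) were higher in both conditions and Tgfb3 (0.47) in hypoxia, while Tgfb2 (-0.56, -0.76) was lower in both and Smad2 (-0.47) in normoxia. Ccn2, a matrix-inducing target, was higher in normoxia (0.48) and lower in hypoxia (-1.27). Hypoxia raised 6 and lowered 3 in WT cells, with rises of Ccn2 (2.47) and Smad7 (0.55) and falls of Tgfb3 (-1.35), Tgfb2 (-0.28) and Tgfb1 (-0.27). In TAZKo cells it raised 5 and lowered 2, with Ccn2 (0.73) and Smad4 (0.28) up and Tgfb3 (-0.93) and Tgfb2 (-0.49) down. All genes were called at 30.4% and 32.8% between genotypes and at 51% and 43.8% with hypoxia, and the list medians were -0.02, -0.22, 0.20 and 0.13. Ccn2 (-1.75) was called for the interaction, where none of the 28 chains was. The falls of Tgfb1 and Tgfb2 with hypoxia in WT cells were lost without each of 3 and 4 single libraries (-0.28 to -0.17, edgeR adjusted p 0.0699 to 0.115). So were the rise of Smad4 in TAZKo cells without TAZKo normoxia replicate 1 or TAZKo hypoxia replicate 2 (0.22 and 0.25, adjusted p 0.0517 to 0.0628) and the excess of Tgfb3 in hypoxia without WT hypoxia replicate 2 (0.41, adjusted p = 0.0563).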

How the data were processed

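RNA-seq libraries (TruSeq RNA v2 kit) of 12 samples in 4 groups of 3 were analysed from deposited tables of raw read counts per Ensembl gene. The submitters' processing notes name the mouse build mm10, while the aligner, counter and strand setting are not given in the sources used here. IDs were matched to GENCODE M21 (GRCm38), and promoter letters are RefSeq's.

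Counts were fitted with edgeR 4.0.16 (R 4.3.3; TMM scaling, filterByExpr, quasi-likelihood test) over all 4 groups, leaving 14408 genes, with Benjamini-Hochberg adjustment over all of them and a threshold of 0.05. The biological coefficient of variation was 8.62%. The script was tested on simulated data. DESeq2 1.42.0, other scalings and filters, fits of only the 6 samples compared, lane as a covariate, single libraries left out and a replicate block were tried as alternatives. Replicates of a group differed by more than counting noise (chi-square per degree of freedom 2.90 to 43.5). Intervals and floors cover counting error only.

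Samples of like replicate number deviated together between genotypes in normoxia (correlation 0.26 to 0.51) and between conditions in WT cells (0.22 to 0.47). The main test used no pairing, so its p-values do not take this into account. Only the replicate block, an alternative, pairs these samples by number. The pairing comes from the data, since the labels give only the numbers.

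The members and lists were chosen with earlier results of these data known. Chains with a call and a group mean of at least 1 CPM are given in every sample. Of the other lists, up to 3 rises and 3 falls were named among genes with at least 10 CPM in a compared group. Some genes that this rule would name are not reported here.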

Additional observations from a re-analysis of the deposited data

How the results depend on the processing

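Counts of calls, class sums and ratios of partner chains were recomputed under each alternative. Of these values, 433 stayed the same, 27 moved further and 5 changed sign. The same meant within 1.5 times for counts, within 1 SD of the group mean for sums and of equal sign for ratios. The exceptions follow, and the cause was not tested. Without a filter on low counts the interaction called 2 collagen chains and 727 of all genes, against 0 and 350, and it called 639 genes with the replicate block and 578 with DESeq2. Fitting only the 6 TAZKo samples called 18 chains with hypoxia. A fold limit of 2 left 4, 4, 6 and 4 called chains. With library size alone the TAZKo normoxia sums were 3681 CPM (fibrillar), 1785 CPM (type IV) and 3665 CPM (other), and the TAZKo hypoxia sum of other chains was 2676 CPM. Counting types VII, XV and XVIII as basement membrane gave 1757 CPM in TAZKo normoxia. Leaving out 1 library at a time, chains called in TAZKo cells with hypoxia ran from 7 to 17 and for the interaction from 0 to 2. Over all genes these calls ran from 5237 to 7639 and from 164 to 617. For the lane, replicate block and 6-sample fits, calls over all genes in the 4 comparisons are not given here. Small differences changed sign in the same way. The genotype difference of Col8a2 in hypoxia ran from -0.29 to 0.079, and that of the log2 ratio of Col1a1 to Col1a2 in normoxia from -0.14 to 0.25. That ratio's hypoxia response in TAZKo cells ran from -0.34 to 0.042, the Col6a1 to Col6a2 genotype difference in normoxia from -0.0023 to 0.044, and the Col4a5 to Col4a6 hypoxia response in TAZKo cells from -0.047 to 0.067. With the replicate block, which pairs samples by number, 14 chains were called between genotypes in normoxia and 19 with hypoxia in WT cells. The calls of collagen chains it changed there are those given for Col4a4, Col9a3, Col18a1 and Col20a1. In the other comparisons the samples share only a number (correlation -0.06 to 0.16 and -0.03 to 0.14), and the block called 14 and 16 chains. With lane as a covariate, 5 fibrillar and 1 type IV chains were called with hypoxia in TAZKo cells, against 3 and 0, and of the named genes only the calls of Col1a1, Col15a1, Col9a3 and Col20a1 described with it changed. Depth limits the chains under about 1 CPM, such as Col4a4, Col6a6, Col9a3, Col14a1 and Col20a1.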
